A study of Mus musculus with 10 samples.

Results

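Distal regions without a called peak before GATA1 activation and with one afterwards were collected from an ATAC-seq time course in mouse erythroid cells. ATAC-seq uses the Tn5 transposase to insert adaptors into open DNA, and each deposited list gave the summits of the peaks of a single library. A region counted as gained and kept when it lay more than 1 kb from every protein-coding transcript start, had a summit in neither list at 0 h, in at least 5 of the 8 later lists and in at least 1 list at 24 h. By this rule 555 regions were chosen, which is 2.97% of 18667 distal regions, themselves part of 28976 regions in all. Among regions within 1 kb of a start the same presence rule took 236 of 10309 (2.29%), and over all regions 791 (2.73%). The members were thus chosen by the presence of summits in the 10 lists, and all values of presence and score below are a description without a test.

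All libraries came from G1E-ER4, a line without functional Gata1 that carries GATA1 fused to the ligand-binding part of the estrogen receptor. Cells grew with SCF and erythropoietin, and β-estradiol at 1e-07 M was given for 2, 6, 12 or 24 h or left out (0 h). There were 2 libraries per time point, about 50000 cells were tagmented for each, and groups and replicate numbers came from the sample titles. The line is a single cultured subclone, no line without the fusion protein and no untreated 24 h culture is part of the comparison, and the study describes its ATAC-seq replicates as separate experiments.

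Most of an erythroid cell's enhancers lie away from promoters. GATA1 binds the letters AGATAA or TGATAA, often beside an E-box held by its partner TAL1, and its recruitment of co-activators and co-repressors drives red cell maturation. KLF1, NFE2, RUNX1 and ETS factors bind many of the same enhancers, and CTCF marks boundaries and loop anchors. Accessible DNA alone does not show which factor is bound or whether a gene responds.

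The following sequences show the members with the highest scores and those at genes of red cell biology. Each reaches 100 bases to either side of the median summit, on the plus strand of GRCm38 patch 6 (mm10, RefSeq). Capitals mark matches to these GATA letters on either strand and, only in sequences without one, to KLF letters (CCNCNCCC). The Ftl1 sequence also holds 2 KLF matches, left in lower case. In the last 3 capitals also mark the CTG of a TAL1-GATA composite, which is CTG, then 7 or 8 bases, then the GATA match.
Noct, chr3:51230276-51230476, intron: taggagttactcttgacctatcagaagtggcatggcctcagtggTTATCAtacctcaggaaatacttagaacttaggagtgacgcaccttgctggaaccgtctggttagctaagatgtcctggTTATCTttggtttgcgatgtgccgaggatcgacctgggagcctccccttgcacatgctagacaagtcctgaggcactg
Uros, chr7:133698037-133698237, intron at the summit: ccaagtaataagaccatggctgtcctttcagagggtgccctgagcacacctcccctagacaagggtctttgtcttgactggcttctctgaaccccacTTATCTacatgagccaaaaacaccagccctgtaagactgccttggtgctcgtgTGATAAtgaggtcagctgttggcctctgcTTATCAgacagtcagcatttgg
Ftl1 (nearest start Nucb1), chr7:45508656-45508856, exon of a Nucb1 transcript: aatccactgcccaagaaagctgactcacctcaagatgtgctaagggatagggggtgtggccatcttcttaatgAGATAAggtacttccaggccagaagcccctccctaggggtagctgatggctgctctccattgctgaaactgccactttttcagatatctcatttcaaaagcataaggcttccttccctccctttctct
D5Ertd579e, chr5:36713203-36713403, intergenic: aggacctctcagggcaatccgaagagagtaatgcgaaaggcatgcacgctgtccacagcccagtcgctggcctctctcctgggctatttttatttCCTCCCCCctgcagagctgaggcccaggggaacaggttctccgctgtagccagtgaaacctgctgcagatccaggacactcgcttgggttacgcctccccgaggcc
Abcb10, chr8:123978936-123979136, intron: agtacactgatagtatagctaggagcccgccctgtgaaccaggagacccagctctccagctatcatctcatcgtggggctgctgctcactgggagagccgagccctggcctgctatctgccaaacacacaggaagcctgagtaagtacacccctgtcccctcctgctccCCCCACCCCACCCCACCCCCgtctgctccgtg
Rrp12, chr19:41888326-41888526, intron: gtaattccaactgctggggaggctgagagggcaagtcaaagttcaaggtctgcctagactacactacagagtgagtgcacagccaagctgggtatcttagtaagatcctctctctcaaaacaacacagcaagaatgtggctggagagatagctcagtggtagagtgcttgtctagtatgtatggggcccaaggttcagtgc
Bcl2l1, chr2:152817630-152817830, intron: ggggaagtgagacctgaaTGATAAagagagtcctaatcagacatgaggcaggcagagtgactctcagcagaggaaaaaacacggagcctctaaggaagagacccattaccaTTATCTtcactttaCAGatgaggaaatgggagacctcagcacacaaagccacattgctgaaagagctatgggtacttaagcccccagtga
Nprl3, chr11:32256234-32256434, exon of an Nprl3 transcript: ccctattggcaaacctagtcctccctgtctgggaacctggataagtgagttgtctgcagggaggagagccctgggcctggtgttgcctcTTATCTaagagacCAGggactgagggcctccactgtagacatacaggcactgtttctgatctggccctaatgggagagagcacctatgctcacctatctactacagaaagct
Spns2, chr11:72482066-72482266, intron: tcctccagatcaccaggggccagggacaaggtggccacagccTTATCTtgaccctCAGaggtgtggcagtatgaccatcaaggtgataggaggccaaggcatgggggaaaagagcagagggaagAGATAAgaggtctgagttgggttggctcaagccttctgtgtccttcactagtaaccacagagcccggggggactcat

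The Noct sequence holds 2 GATA matches, 53 bp before and 26 bp after the median summit, and the Uros sequence holds 3, of which one is centred on the summit. Of GATA and KLF letters, D5Ertd579e and Abcb10 hold KLF alone, and Rrp12 holds neither. Read 5′ to 3′ on the minus strand, the composites are CTGTAAAGTGAAGATAA at Bcl2l1, CTGGTCTCTTAGATAA at Nprl3 and CTGAGGGTCAAGATAA at Spns2. These 3 were picked for their composite after the matches at genes of the lists had been seen.

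How firmly the regions were gained was examined first, because a missing summit means only that no peak was called. Lists were of unequal length, from 10697 summits (24 h replicate 2) to 19855 (6 h replicate 2), and the 0 h lists held 15256 and 11697. With replicate 1 first, the 2 h libraries listed 407 and 339 members, those of 6 h 373 and 511, those of 12 h 422 and 357, and those of 24 h 501 and 293. The highest member count stood in the longest list and the lowest in the shortest. The rule asks for a summit at 24 h, which raises the 24 h counts by selection. In 24 h replicate 1, 501 members were listed among 15570 summits, and in 2 h replicate 1, 407 among 16113. Depth is unknown here, and its part in these counts was not tested.

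**Figure D1:**
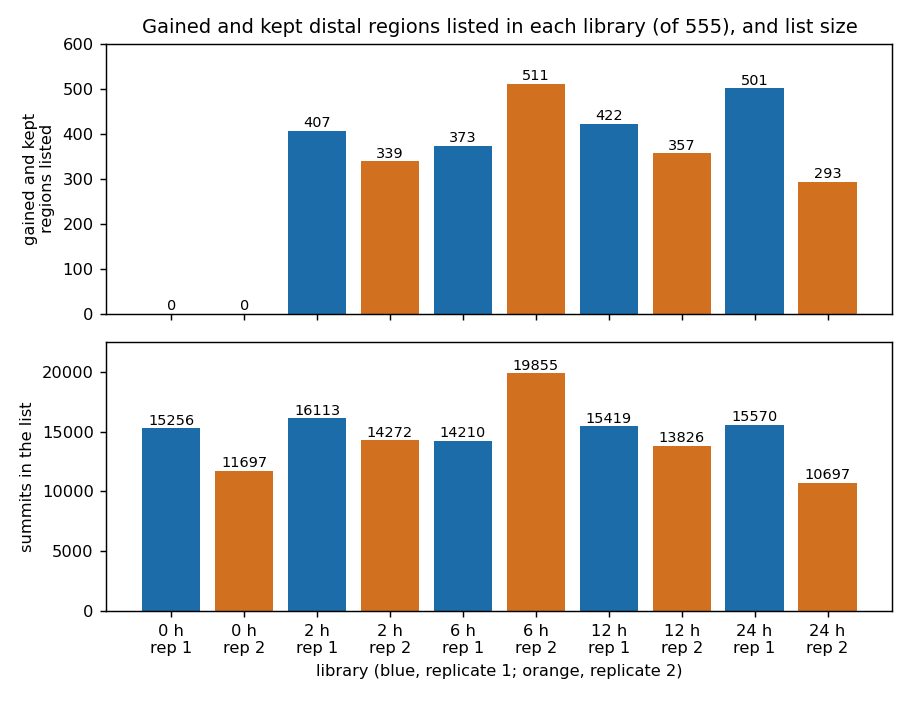
Number of gained and kept distal regions listed in each library (upper bars, of 555) and number of summits in each list (lower bars), with replicate 1 in blue and replicate 2 in orange. Member counts run from 293 in the shortest list to 511 in the longest, and are 0 at 0 h because of the rule.

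The more later libraries held a distal region, the smaller was the share with no summit at 0 h. It was 88.4% among 7334 regions in 1 later library, 71.0% among 2941 in 2, 57.3% among 1832 in 3, 42.4% among 1301 in 4, 30.6% among 1093 in 5, 19.4% among 888 in 6, 9.63% among 893 in 7 and 2.45% among 1431 in all 8. Of the 4305 distal regions in at least 5 later libraries, 628 (14.6%) had none at 0 h, and 73 of these had no summit at 24 h either. Most members therefore sat at the weak end of the rule, with 283 in exactly 5 later libraries, 151 in 6, 86 in 7 and 35 in all 8.

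A single 0 h summit kept many regions out. Exactly 1 of the 0 h libraries had a summit in 1114 distal regions that otherwise met the rule, and both had one in a further 2206. Without 0 h replicate 1 the rule took 1446 regions, and without 0 h replicate 2 it took 780. Left out in turn, 24 h replicate 1 gave 215, 6 h replicate 2 gave 306 and 2 h replicate 1 gave 368 members. Members in the rule under each of the 10 omissions numbered 161 (29.0%). This count is largely set by the rule, which still asked for 5 later libraries and 1 at 24 h. The 283 members in exactly 5 later libraries and the 316 in 1 library at 24 h had to fail some omission. Leaving out a 0 h library could not remove a member for lack of summits. The count is therefore no measure of stability.

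Of the alternatives run, equal list lengths kept the fewest members. With every list reduced to its 10697 highest summits, 265 regions met the rule and only 121 of them were among the 555, which is 21.8% of the 555 and 45.7% of the 265. Those that stayed were 9 of 283 members in 5 later libraries, 33 of 151 in 6, 47 of 86 in 7 and 32 of 35 in all 8. This order is partly built into the rule. It still asked for 5 later libraries, so members in more of them could lose a summit and stay. The regions named below are marked where they did not stay.

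"Kept" likewise held in part. Both 24 h libraries listed 239 members (43.1%) and the other 316 were listed in 1 of them, while both libraries agreed for 237 at 2 h, 339 at 6 h, then 264 at 12 h. At least 1 library of every later time point listed 459 members. Of the remainder, 46 had no summit at 2 h, 10 none at 6 h and 40 none at 12 h. The rule itself requires a first summit by 6 h, and 509 members had one at 2 h.

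Counted over single time points, 586 distal regions (3.14%) were in both 2 h and neither 0 h library, 878 (4.70%) for 6 h, 524 (2.81%) for 12 h and 374 (2.00%) for 24 h. Agreement of both libraries came first at 2 h for 237 members, at 6 h for 209, at 12 h for 73 and at 24 h for 36. Replicate numbers differed too, since 195 members were in all 4 later replicate 1 libraries and 105 in all 4 of replicate 2.

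By the rule no 0 h summit could lie inside a member, so distances to the nearest one are a description only. The nearest 0 h summit lay at a median distance of 12.8 kb, 583 bp at the least, and within 1 kb for 11 members. Within 10 kb it lay for 215 (38.7%). The closest was at the member beside Ms4a2.

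Members were weak peaks by the caller's score, which is −log10 of the q-value in the peak's own library. Their median score was between 4.63 (6 h replicate 1) and 6.05 (6 h replicate 2) in the 8 libraries. Ranked inside each list, with 100 as the highest score, the median member stood at percentile 26.0 to 38.9. Distal regions in at least 5 later libraries that also had a 0 h summit (3677 regions) stood at 43.0 to 58.6 in the same libraries. Members thus ranked below the regions with a 0 h summit in every later library, and close to the median distal region (31.5 to 38.3).

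**Figure D2:**
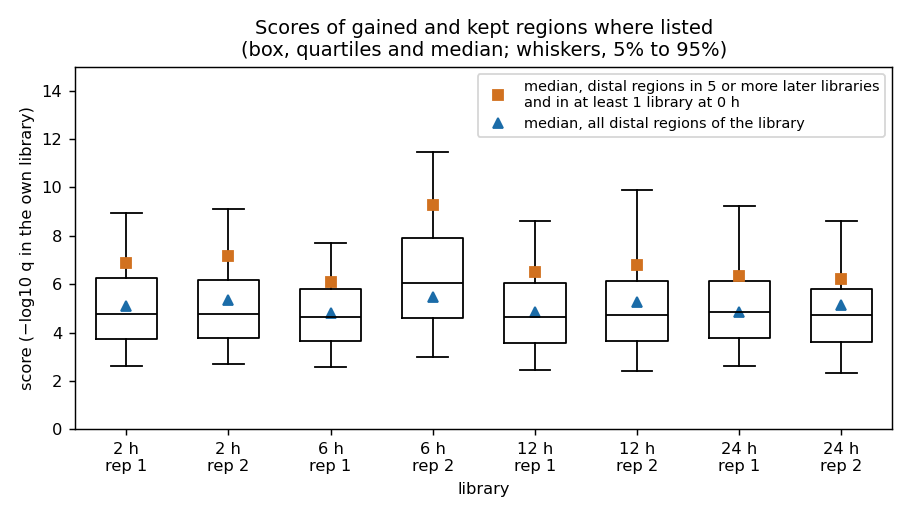
Score (−log10 q in the own library) of gained and kept regions in each library that lists them, as boxes of median and quartiles with whiskers from the 5% to the 95% point. Member medians lie between 4.63 and 6.05, below the orange squares (distal regions in 5 or more later libraries with a 0 h summit) in every library, while blue triangles give all distal regions of the library.

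Score and persistence moved together. A member's mean percentile over the libraries that listed it had a median of 30.4 for members in 5 later libraries, 33.5 in 6, 38.2 in 7 and 45.4 in 8. Regions with a 0 h summit had 36.2, 41.0, 47.0 and 65.2 at the same counts. The lowest member mean was 6.33 and the highest 69.3.

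The 552 distal regions in 4 later libraries and no 0 h library had a median mean percentile of 28.4, against 30.4 for the members in 5. The 3 strongest members in exactly 5 libraries lay near Gm10800, a predicted gene, near Cryz, which encodes a quinone reductase, and near Mroh3. Near Gm10800 the scores were 10.1, 11.0 and 10.1 in replicate 2 at 2, 6 and 12 h and 8.68 and 10.0 at 24 h, with no replicate 1 summit before 24 h. Repeat sequence of this stretch is known to gather excess reads in many mouse libraries, and its part here was not tested. The Cryz region, 89.1% repeat-masked, scored 7.22 and 12.3 at 6 h, 8.26 and 6.33 at 12 h and 9.96 in 24 h replicate 1. The Mroh3 region scored 10.2 in 6 h replicate 2, 4.08 and 7.03 at 12 h, then 17.5 and 12.3 at 24 h, its highest values falling in both 24 h libraries, but it did not stay with equal lists.

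Just outside were regions in introns of Klf13, Chst10 and Prrc2b, each with 4 later libraries. The one in Klf13, nearest to the start of E030018B13Rik, scored 8.0, 11.7, 6.11 and 5.63 in replicate 1 at 2, 6, 12 and 24 h and had no replicate 2 summit. In Chst10, which encodes a sulfotransferase, the scores were 5.15 in 2 h replicate 2, 14 in 6 h replicate 2, 9.40 in 12 h replicate 1 and 7.71 in 24 h replicate 1. In Prrc2b they were 5.81 in 2 h replicate 1, 5.47 in 6 h replicate 2, 11.3 in 12 h replicate 1 and 8.22 in 24 h replicate 1. These regions, like those just inside, were picked as the strongest on their side.

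Position in the genome was not used beyond the distance to starts. Introns held 284 members (51.2%, exact 95% interval 46.9 to 55.4) and intergenic DNA 231 (41.6%), against 48.8% and 45.6% of all distal regions. A further 16 lay in a UTR, 12 in coding exons and 12 in other exons. The interval for introns spans the share of all distal regions, so no difference from these was detectable in this number of regions. Distal regions in at least 5 later libraries with a 0 h summit had 44.8% in introns (43.2 to 46.5), an interval that does not overlap that of the members. Those in both 0 h and neither 24 h library had 47.4% (44.1 to 50.7), which does overlap. Members in both 24 h libraries had 46.9%. All such intervals cover counting of regions only, and neighbouring regions are not independent.

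By their medians, members lay nearer to promoters than distal regions at large. Their median distance to a protein-coding start was 13.9 kb, compared with 18.3 kb for all distal regions and 27.3 kb for the 882 distal regions in both 0 h and neither 24 h library. Within 10 kb were 205 members (36.9% against 31.2%), and beyond 100 kb were 23 (4.14% against 10.4%). A noncoding transcript start lay within 1 kb of 40 members (7.21%), against 6.10% of all distal regions. Among distal regions in at least 5 later libraries with a 0 h summit the share was 10.4%. The median width was 678 bp, against 563 bp for all distal regions and 709 bp for those in at least 5 later libraries with a 0 h summit. The median G+C share within 100 bp of the median summit was 50.2%, against 48.8% for all distal regions.

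Members lay on every chromosome searched. On single chromosomes members made up from 1.14% of distal regions (X, 4 of 350) to 4.01% (chromosome 12, 37 of 923). They had 522 different nearest genes. For nearest genes and for groups no matching count was made over all distal regions, so it is unknown whether the numbers are high or low. Within 50 kb of another member lay 60 members (10.8%), in 29 groups, and 2 of these groups had 3 members.

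Both of these groups, named after their values were seen, lay in introns of a single gene. One was in Ccdc88c, encoding the Wnt-signalling protein Daple, over 68.0 kb, and one in Pde4d, a cAMP phosphodiesterase, over 50.5 kb. In Ccdc88c the members at chr12:100958009-100959740 and chr12:101025236-101025977 were in all 8 later libraries. The first scored 4.06 and 5.73 at 2 h, then 5.52 and 4.54 at 6 h, 5.21 and 5.54 at 12 h, then 9.82 and 6.96 at 24 h, so that both 24 h values were above all earlier ones. The second scored 5.71 and 9.24, 2.71 and 8.67, 4.61 and 6.12, and 5.65 and 3.97 at the same times, with no such order. Both stayed with equal lists, and the other 4 members of these groups did not. Each Pde4d member was in 5 later libraries and in 1 at 24 h.

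Motif letters were then searched within 100 bp to either side of the median summit, on both strands. GATA letters were found in 239 of 555 members (43.1%, interval 38.9 to 47.3) and in 39.2% of all distal regions, a share just inside the interval. Distal regions in at least 5 later libraries with a 0 h summit had 49.4%, and those in both 0 h and neither 24 h library, called lost by 24 h below, had 75.7%. GATA letters were thus less frequent among members than in either of these comparison sets, with intervals that do not overlap. The order against the first of these sets rested on the less persistent members. The share was 49.6% with at least 6 later libraries and 51.5% with both 24 h libraries. Both shares were still below the 75.7% of the regions lost by 24 h. Only 58 members (10.5%) held 2 or more, against 43.1% of the regions lost by 24 h.

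The TAL1-GATA composite, which contains GATA by construction, matched 48 members (8.65%, interval 6.45 to 11.3). In all distal regions the share was 7.53%, in those with a 0 h summit 14.4% and in those lost by 24 h 22.2%. None of the 35 members in all 8 later libraries held it, which allows a share of up to 10.0%. The members in 5, 6 and 7 later libraries held it at 8.83%, 9.27% and 10.5%.

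GATA letters were more frequent in the more persistent members. The share was 36.7% (interval 31.1 to 42.7) in 5 later libraries, 44.4% (36.3 to 52.7) in 6, 57% (45.8 to 67.6) in 7 and 54.3% (36.6 to 71.2) in 8. Distal regions without 0 h summit in 1, 2, 3 and 4 later libraries had 30.3%, 32.7%, 35.4% and 40.0%. Regions with a 0 h summit showed no such order, at 48.7%, 50.4%, 50.9% and 48.3% in 5 to 8 later libraries. Members in both 24 h libraries had 51.5% (44.9 to 58.0), and those in 1 of them 36.7% (31.4 to 42.3). Score moved with persistence as well, and its part was not tested. The 121 members that stayed with equal lists held GATA in 66 cases (54.5%), where all distal regions of the equal lists had 43.6%.

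CTCF letters matched 49 members (8.83%, interval 6.60 to 11.5), 8.04% of all distal regions, 4.38% (3.74 to 5.09) of those with a 0 h summit in at least 5 later libraries and 1.47% of those lost by 24 h. By persistence the members' share was 9.19% (interval 6.09 to 13.2) in 5 later libraries, 8.61% (4.66 to 14.3) in 6, 8.14% (3.34 to 16.1) in 7 and 8.57% (1.80 to 23.1) in 8. Regions with a 0 h summit had 7.12% (5.4 to 9.19), 4.61% (3.19 to 6.41), 4.83% (3.46 to 6.55) and 2.51% (1.75 to 3.47) at the same counts. The members' share was the higher one at each count, while the intervals overlap at each. The difference between regions of equal persistence was not tested. At 4 later libraries and none at 0 h it was 14.7%. Without 24 h replicate 1 the members' share was 6.51%. GATA and CTCF stood together in 5 members, and 272 had neither.

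**Figure D3:**
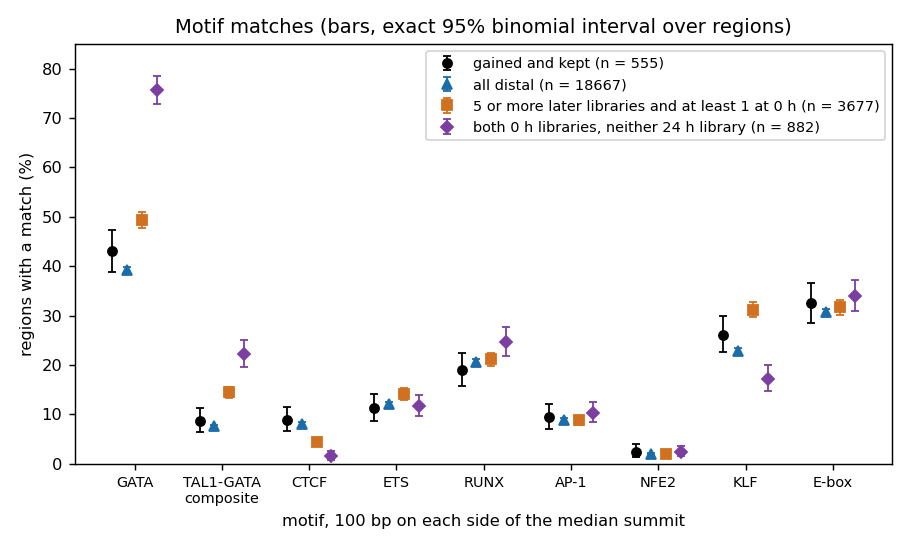
Share of regions with a match to each motif within 100 bp of the median summit, for gained and kept regions and 3 sets of distal regions, with exact 95% binomial intervals. GATA was found in 43.1% of gained and kept regions and in 75.7% of regions in both 0 h and neither 24 h library, and CTCF in 8.83% and 1.47%.

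Matches clustered at the summits. In bins of 50 bp, GATA letters were in 16.0% of members at the median summit and in 3.42% and 5.05% at 300 bp on either side. CTCF was in 3.42% of members at the summit bin and in 0% or 0.180% at 300 bp. Both motifs are thus centred where the peak caller put the summit, as they are in all distal regions.

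**Figure D4:**
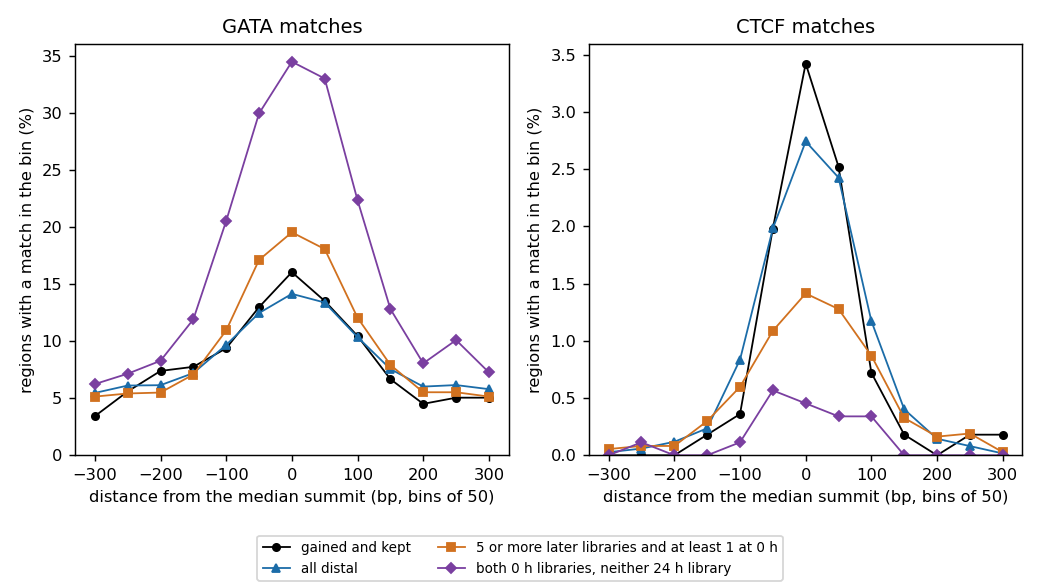
Share of regions with a GATA (left) or CTCF (right) match in bins of 50 bp, by distance from the median summit, for gained and kept regions and the same 3 comparison sets; the vertical scales differ. Among gained and kept regions both curves peak in the bin at the summit, at 16.0% for GATA and 3.42% for CTCF.

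The other letters gave shares close to all distal regions. ETS (CAGGAAG or CCGGAAG) matched 11.2% of members and 12.1% of distal regions, RUNX (TGTGGT) 18.9% and 20.7%, AP-1 (TGANTCA) 9.37% and 8.89% and E-box (CAGCTG or CAGATG) 32.4% and 30.7%. KLF letters (CCNCNCCC) matched 26.1% (interval 22.5 to 30.0) and 22.8%. They matched 17.2% (14.8 to 19.9) of regions lost by 24 h, an interval below that of the members. Regions in at least 5 later libraries with a 0 h summit had 31.1% (29.6 to 32.7), an interval that overlaps that of the members. The NFE2 motif, whose letters contain AP-1, matched 2.34% and 1.87%. For each of these motifs the members' interval spans the share of all distal regions. None of the searched motifs was in 84 members (15.1%).

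The strongest of the 35 members in all 8 later libraries were ranked by mean percentile over those libraries. The first lay in an intron of Noct, the circadian phosphatase nocturnin, 5.55 kb from its start. It scored 7.35 and 6.99 at 2 h, then 6.75 and 16.3 at 6 h, 8.26 and 14.4 at 12 h, then 8.30 and 11.8 at 24 h. Replicate 2 was above replicate 1 at all time points but 2 h.

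The second, in an intron of Rrp12, a ribosome biogenesis factor, scored 5.88 and 8.88, 6.68 and 21.3, 10.7 and 12.2, and 8.07 and 8.32 at 2, 6, 12 and 24 h. Its 6 h replicate 2 score was the highest of any member in a library. The intergenic member 17 kb from D5Ertd579e scored 10.3 and 8.33, 11.3 and 10.8, 9.11 and 3.96, and 10.0 and 6.57 at those times, and only 12 h replicate 2 was low.

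A member 1.06 kb from the start of Mettl6, a tRNA methyltransferase, lay at chr14:31496096-31496687, in an intron of Eaf1, an elongation factor partner. Its scores were 5.27 and 13.2, 6.31 and 18.4, 6.48 and 10.8, and 5.63 and 10.4, with every replicate 2 value above every replicate 1 value. In Dis3l2, an exoribonuclease gene, a member 173 kb from the start of Alppl2 scored 11.1 and 10.4, 3.79 and 19.3, 6.00 and 11.3, and 5.67 and 7.16. It was highest in 6 h replicate 2 and lowest in 6 h replicate 1, so its level at 6 h is uncertain.

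In Arid1a, a subunit of the BAF remodelling complex, an intronic member at chr4:133729618-133730614 scored 5.96 and 3.94, 8.66 and 12.4, 7.14 and 16.1, and 8.91 and 5.71. Both 6 h and both 12 h values were above both 2 h values. In intergenic DNA 29.8 kb from Nck2, an adaptor protein gene, at chr1:43414082-43414781, the scores were 10.2 and 12.0, 5.88 and 6.79, 6.20 and 6.71, and 4.78 and 12.1. This member was high at 2 h and lower at 6 and 12 h. Its lowest and highest scores were both at 24 h, in replicate 1 and replicate 2. By percentile its highest place was 80.1 in 2 h replicate 1, with 77.3 in 24 h replicate 2.

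In an intron of Sigirr, an inhibitory receptor of the interleukin-1 family, at chr7:141092168-141092849, the scores were 8.79 and 4.63, 7.4 and 10.0, 5.34 and 7.89, and 7.45 and 7.33. Its time points overlap. All of these members, and that in Abcb10 described below, stayed with equal lists.

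Gene lists of erythroid biology and of other fates open to these cells were then set against the members, counting a region inside a gene or within 50 kb of one of its starts. Of 163 annotated genes in 13 lists, 33 (20.2%) had a member, against 5.68% of all protein-coding genes and 9.16% of those with any distal region in reach. Counted over distal regions at genes of the lists, 32 of 605 (5.29%) were members, against 2.97% overall. The lists were chosen with earlier results of these data known and genes of a list can share a region, so no set test was made. Reach of 20 kb gave 19 genes and the nearest start alone 17. With equal lists 9 of the 32 regions stayed, at 9 of the 33 genes, which are Abcb10, Uros, Ftl1, Slc11a2, Add2, Sptb, Foxo3, Bcl2l1 and Pim1.

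Heme synthesis had members at 3 of 12 genes. At Abcb10, a mitochondrial transporter needed for heme production in red cells, an intronic member 3.75 kb from the start was in all 8 later libraries. It scored 6.52 and 5.88 at 2 h, then 6.99 and 10.9 at 6 h, 6.75 and 14.2 at 12 h, then 12.6 and 3.80 at 24 h. Its highest rank and its lowest were both at 24 h, percentile 90.5 in replicate 1 and 14.5 in replicate 2.

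Uros, which encodes uroporphyrinogen III synthase, had its only distal region here, the one with 3 GATA matches. It scored 5.41 and 8.10 at 2 h, 14.3 in 6 h replicate 2, 10.3 in 12 h replicate 2, then 4.64 and 8.82 at 24 h. Replicate 1 had no summit at 6 and 12 h. At Fech, encoding ferrochelatase, which puts iron into heme, an intronic member scored 5.46 in 2 h replicate 2, 7.22 and 5.33 at 6 h, 2.45 and 5.63 at 12 h and 5.78 in 24 h replicate 2. It did not stay with equal lists, whereas Abcb10 and Uros did.

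The globin list had 1 region, in Nprl3, a gene whose introns are known to hold the distal enhancers of the α-globin genes. It was in reach of Hba-a1, Hba-a2 and Hba-x (26.9, 39.8 and 19.8 kb), so that 3 of 8 globin genes counted. Scores were 3.27 and 4.96 at 2 h, 9.39 in 6 h replicate 2, 3.96 and 4.05 at 12 h, then 3.72 and 5.57 at 24 h. Apart from 6 h replicate 2 these are low values, and the region did not stay with equal lists. Of 9 distal regions in reach of Hba-a1, 5 had a 0 h summit, so most of what was called around this gene was already listed before activation.

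Iron handling had 4 of 9 genes. Ftl1, the ferritin light chain, was 48.5 kb from a member beside Nucb1 that scored 6.84 in 2 h replicate 1, 6.5 and 7.90 at 6 h, 5.52 and 5.68 at 12 h, then 11.0 and 8.56 at 24 h. Both 24 h values were above all earlier ones. A member at chr15:100457180-100458441, 32.1 kb from Slc11a2, the iron importer DMT1, was in all 8 libraries and scored between 3.87 and 7.70, with 7.44 and 4.95 at 24 h.

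Ncoa4, the receptor that delivers ferritin to autophagy, had 2 members in reach. Its intronic composite region scored 6.53 in 2 h replicate 1, 4.52 in 6 h replicate 2, 4.61 in 12 h replicate 1, then 3.95 and 6.51 at 24 h. It was in a single library at each time before 24 h and did not stay with equal lists. Fth1, the ferritin heavy chain, was the fourth gene, with a member in 6 later libraries and 1 at 24 h.

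The membrane skeleton list had 3 of 13 genes and the surface list 1 of 14. A member at chr6:86004102-86004802, 23.9 kb from Add2, one of the adducins that cap actin at the skeleton, scored 7.24 and 6.09 at 2 h, 5.73 and 4.23 at 6 h, 2.45 in 12 h replicate 1, then 4.90 and 5.71 at 24 h. A member at chr12:76752531-76753618, 42.0 kb from Sptb, β-spectrin, scored 5.54 and 2.66, 4.31 and 6.61, 6.05 in 12 h replicate 2, and 6.98 and 3.21. Neither had a clear order in time. A member at Add3 was in 5 later libraries, and one near Ermap, an erythroid membrane protein, in 7 with scores of 3.13 to 7.11. With equal lists the Add2 and Sptb members stayed and that near Ermap did not.

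Hematopoietic transcription factors had 6 of 23 genes. In Foxo3, which promotes red cell maturation, an intronic member at chr10:42247003-42247673 scored 4.22 and 4.70 at 2 h, 6.99 and 7.51 at 6 h, 10.8 in 12 h replicate 1 and 8.08 in 24 h replicate 1. Every value from 6 h on was above both 2 h values, but replicate 2 had no summit at 12 and 24 h.

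Mafk, the small partner of NFE2, had 2 members in reach. One, at chr5:139830546-139831236 and also in reach of Tmem184a, scored 7.29 and 4.83 at 2 h, 9.29 in 6 h replicate 2, 3.96 in 12 h replicate 1, then 4.30 and 5.37 at 24 h. The other was in 5 later libraries, at 3.35 to 7.23. Near Nfe2 itself, in an intron of Copz1 at chr15:103280669-103281904, scores were 6.05 and 6.74 at 2 h, 5.29 and 5.28 at 6 h, then 3.63 and 4.09 at 24 h, with none at 12 h. Later values were thus below earlier ones, in the direction opposite to a gain over time. None of these 3 regions stayed with equal lists.

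Tal1, Gfi1b and E2f2 also had a member, each in 5 or 6 later libraries and in 1 library at 24 h. No GATA match stood in the Tal1 or E2f2 member, and 1 stood in that of Gfi1b.

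Erythropoietin signalling had 3 of 9 genes. Bcl2l1, which encodes the survival protein Bcl-xL, held an intronic member with 2 GATA matches and a composite. It scored 4.27 in 2 h replicate 1, 9.60 and 9.23 at 6 h, 5.64 and 5.93 at 12 h, then 8.26 and 5.77 at 24 h. The scores of the 2 libraries lay close together at 6 and 12 h. Their percentiles were further apart, at 81.1 and 58.2 at 6 h and 48.8 and 38.2 at 12 h. By score and by percentile all later values were above the one at 2 h.

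A member at chr17:29447052-29447765, 43.0 kb from Pim1, a survival kinase gene, scored 1.93 in 2 h replicate 1, 5.55 and 12.3 at 6 h, 3.87 and 8.21 at 12 h, then 6.07 and 11.0 at 24 h. Like Bcl2l1 it stayed with equal lists and was lowest at 2 h. Near Socs3, which dampens the receptor's signal, a member at chr11:118000568-118001153 had no summit at 2 h and scored 3.84 and 10.0 at 6 h, 4.4 in 12 h replicate 1, then 3.76 and 4.70 at 24 h. It did not stay with equal lists.

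Autophagy genes had 2 of 9 and G1 regulators 1 of 13. In Bnip3l, the mitophagy receptor that clears mitochondria from reticulocytes, a member at chr14:66999566-67000254 scored 9.20 in 2 h replicate 1, 2.83 and 6.88 at 6 h, 3.67 in 12 h replicate 2 and 6.17 in 24 h replicate 1, and it did not stay with equal lists. Every member at Bnip3l, at the autophagy kinase gene Ulk1 and at the cyclin gene Ccnd3 was in 5 later libraries and 1 at 24 h.

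Genes of other fates had members as well. The mast cell and basophil list had 3 of 16 genes, Il1rl1 (the interleukin-33 receptor), Ms4a2 (a chain of the high-affinity IgE receptor) and Kit (the receptor for SCF, which the medium contained). The Il1rl1 member, at chr1:40380008-40380650 and 48.9 kb from the start, scored 7.72 and 6.94 at 2 h, then 6.99 and 9.66 at 6 h, 4.4 and 8.46 at 12 h and 4.13 in 24 h replicate 1. That near Ms4a2, at chr19:11611426-11612021, scored 5.33 in 2 h replicate 2, 5.06 and 6.84 at 6 h, 4.23 in 12 h replicate 2, then 5.12 and 3.82 at 24 h. The lowest value of each was at 24 h. The member in an intron of Kit, at chr5:75623995-75624726, outside the naming rule and added after its values were seen, scored 3.02 in 2 h replicate 1, 3.30 in 6 h replicate 2, 3.56 and 10.4 at 12 h, then 5.13 and 3.13 at 24 h, and was lowest at 2 h. None of the 3 stayed with equal lists. The megakaryocyte and platelet list had 1 of 13, Itgb3, whose member held a CTCF match.

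**Figure D5:**
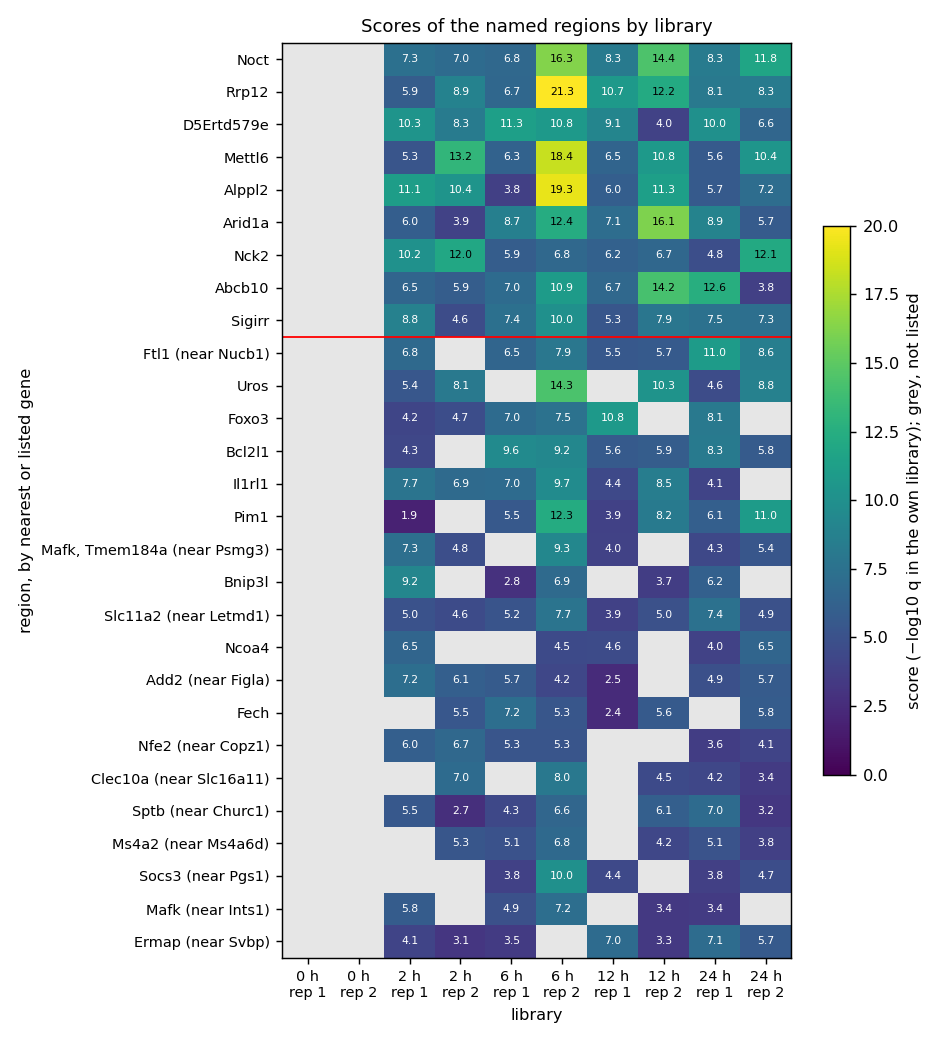
Scores (−log10 q in the own library) of the named members in each library, with 9 of the 10 strongest members in all 8 later libraries above the red line and members at genes of the lists below it. Grey marks libraries without a summit, which include both 0 h libraries by the rule; no member below the line but the one near Slc11a2 is listed in all 8 later libraries.

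The study captured promoters of genes that its own work groups as activated or repressed by GATA1, and both groups had members in reach. Among activated genes 4 of 22 had one (Abcb10, Mafk, Spns2, Tmem184a). The list of repressed genes used here holds 19, fewer than the study captured, and 4 had one (Clec10a, Il1rl1, Kit, Ms4a2). The composite member in Spns2, a sphingosine-1-phosphate exporter gene, scored 4.74 and 5.24 at 6 h, 4.29 and 3.10 at 12 h, then 5.47 and 3.69 at 24 h. It had no summit at 2 h and both libraries at each later time. Near Clec10a, a lectin gene, at chr11:70201491-70202107, scores were 7.00 in 2 h replicate 2, 8.05 in 6 h replicate 2, 4.53 in 12 h replicate 2, then 4.23 and 3.44 at 24 h. Neither region stayed with equal lists, and the counts of 4 genes each do not set the groups apart.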

How the data were processed

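The authors tagmented about 50000 cells per library, kept reads with a single position in mm10 and called peaks with MACS2 in each library, without pooling. The labels name Bowtie 1.0.0 and Picard, the paper's methods name Bowtie2, and the aligner was not settled. No shift for the Tn5 cut is stated, which leaves summits uncertain by some bases. The deposited lists give 1 bp summits and, as a score, −log10 of the q-value (lowest 1.30, q-value 0.0499), with no read counts, so depth is unknown and scores are not scaled between libraries.

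The 146915 summits on chromosomes 1 to 19 and X were extended by 250 bp on each side and merged. Distances used 58465 protein-coding transcripts of 21670 genes (GENCODE M21, comprehensive). A percentile is the rank of a summit's score inside its own list. Motifs were read within 100 bp on each side of the median summit, in the RefSeq sequence of GRCm38 patch 6. Python 3.11.15, numpy 2.4.6, pandas 2.3.3, scipy 1.17.1, pysam 0.24.0 and matplotlib 3.10.9 were used, and the merging and motif search were tested on simulated data. Intervals are exact binomial at 95%.

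The members and lists were chosen with earlier results of these data known. Named are the 10 strongest members in all 8 later libraries, the 20 strongest at genes of the 13 lists (164 genes), and the 3 strongest on either side of the threshold. The rule also asked for composite members in all 8 later libraries and found none, and the Nprl3, Spns2 and Kit regions and the Ccdc88c and Pde4d groups were added after their values were seen. One of the 10 strongest members and some sequences are not reported here. Alternatives changed the window, score, list length, distance, presence criteria and libraries.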

Additional observations from a re-analysis of the deposited data

How the results depend on the processing

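The number of members was 555, and moved by over 1.5 times with lists of equal length (265), at least 4 of 8 later libraries (939), at least 6 (272) and both 24 h libraries (239). Leaving out 1 library in turn, with the rule still at 5 later libraries, gave 215 to 1446 members. Windows of 100 or 500 bp, score minimums of 2 or 3, a distance of 2 kb and any transcript start left it between 470 and 554, and starts of the basic annotation, an alternative chosen after seeing the data, gave 566. The GATA share was 51.3% with equal lists (all distal regions then 43.6%), 49.6% with at least 6 later libraries and 51.5% with both 24 h libraries, and 39.7% to 49.3% without 1 library. Within 50 bp of the summit GATA was at 27.2% (all distal regions 24.5%), the composite at 5.05% (4.08%) and CTCF at 6.13% (5.11%). Within 200 bp GATA was at 56.4% (53.0%), the composite at 10.3% (10.0%) and CTCF at 9.19% (9.80%). A shorter or longer window holds fewer or more letters in members and all distal regions alike. Within 200 bp the CTCF share was below that of all distal regions, opposite in order to the main window. The reason was not tested. CTCF ranged from 6.51% to 9.82% without 1 library. The intron share was 46.9% with both 24 h libraries. Genes of the lists with a member numbered 19 within 20 kb, 40 within 100 kb and 17 by nearest start. For the changed member sets the cause was not tested. No paired analysis was possible because the results come from no test. Depth is unknown, so a missing summit does not show closed chromatin.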

Other observations

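Among the listed genes only Uros a member and no other distal region in its body or within 50 kb of a start. Bnip3l had 3 distal regions, Clec10a 2 and Ermap 2, and none of them had a 0 h summit. At these genes and at Uros every distal region called in the series was thus without a summit at 0 h. Such regions were few at each gene, and lacking a 0 h summit was common. Over all distal regions a 0 h summit lay within 1 kb of the median summit for 43.3%. At Tal1, 7 of the 8 distal regions had one. A value of 5 members was reached at Gm20388, a predicted gene model that also covers Abcb10, and 3 each at Anxa9, Ccdc88c, Fntb and Pde4d, again within 50 kb of a start or inside the gene. These counts were looked at after the members were known. For Gm20388 and the genes with 3 members the number of distal regions in reach was not set beside them.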
